A study of Rattus norvegicus with 12 samples.

Results

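The proteins of the cytosolic ribosome were followed, through their transcripts, in rat hepatocytes by 57 array probe sets for 50 genes, out of 31042 probe sets that were not controls. A probe set was taken when the platform table gave it a single gene symbol, and that symbol was Rpl or Rps followed by a digit, or Rplp0, Rplp1, Rplp2 or Rpsa. Ribosomal S6 kinases were left out. The 50 genes comprised 29 core proteins of the large subunit, 13 core proteins of the small subunit, 6 paralogs (Rpl26l1, Rpl39l1, Rpl3l, Rpl7l1, Rps27l and Rps4y2) and 2 symbols that mark pseudogenes (Rpl37-ps2 and Rps4x-ps1). A further 36 probe sets carried a ribosomal protein symbol beside other symbols and are described apart, since their signal has no single source. Rplp1, Rplp2 and Rps27a had no probe set under this rule and were not analysed here.

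A cytosolic ribosome joins a small subunit, which reads the mRNA, to a large subunit, which forms the peptide bond and holds the tunnel through which the new chain leaves. Its proteins are made in matched amounts, and most of their mRNAs begin with a run of pyrimidines, the terminal oligopyrimidine (TOP) motif, through which the TOR pathway and the protein Larp1 control how much they are translated. In liver, which secretes most plasma proteins, these mRNAs are among the most abundant.

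The hepatocytes came from rats whose strain is labelled Fischer 334. The cells were freed from the liver with collagenase, and their RNA was taken without culture. The 4 groups were heart-beating donors, donors 4 h after death, donors 16 h after death and donors 30 h after death. Each had 3 animals, labelled as biological replicates, with 1 array per animal, so every group value below has n = 3. No other treatment or allele is given for any group. The design asks what a wait after the donor's death does to the transcripts of the hepatocytes recovered.

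Values are log2 signals after RMA, a method that forces all arrays to nearly 1 distribution, so a signal has meaning only against the other signals of its array. In such bulk RNA, fewer cells of a type and less RNA per cell cannot be told apart. The correlation between replicate arrays ranged from 0.9913 to 0.9969. The summed signal of the hepatocyte markers, which Alb leads, spanned log2 16.97 to 17.06 with a beating heart and 16.83 to 16.94 at 30 h. Of the 20 hepatocyte marker probe sets 5 were lower at 30 h (Cps1 by a difference of -1.70, Asgr2 by -1.33, Asgr1 by -1.14, Hnf4a by -0.61 and Apoa1 by -0.28) and 2 were higher (another Hnf4a probe set by 0.76 and Fgb by 0.29), while the brighter Cps1 probe set differed by 0.08 without a call. Over all probe sets 9.36% were called lower and 10.4% higher at 30 h. RNA quality moved with time after death. The 3′ control probe set of Gapdh exceeded the 5′ one by 0.39 ± 0.08 (SD) on the log2 scale in heart-beating donors, by 0.38 ± 0.10 at 4 h, by 1.05 ± 0.20 at 16 h and by 1.97 ± 0.29 at 30 h. The last 2 groups lay wholly above the heart-beating arrays (exact two-sided permutation p = 0.1, the smallest that 3 against 3 arrays allow).

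The promoter table of RefSeq (assembly GRCr8) gave a transcription start for 43 of the 50 genes, 2 of them matched by symbol in place of gene ID. The 30 bases shown run from 10 bases before the annotated first base to 20 bases into the transcript, 5′ to 3′ on the gene's strand, with the longest run of C and T in capitals. The first 5 belong to genes that fell at 30 h and the other 5 to genes without a call, to set the start of the mRNA beside the results that follow. Every window shown holds a run of at least 7 pyrimidines, so the windows do not represent all genes. Such a run was present in 10 of 19 core genes that fell and in 14 of 18 that did not. Their positions are chr16:96507-96536 (plus strand) for Rps24, chr8:129163610-129163639 (plus) for Rpl14, chr2:221962264-221962293 (minus) for Rpl34, chr2:23814507-23814536 (plus) for Rps23 and chr12:46718371-46718400 (minus) for Rplp0. For the uncalled genes they are chr3:43165902-43165931 (minus) for Rpl35, chr8:73566467-73566496 (plus) for Rpl4, chr10:83519054-83519083 (plus) for Rpl19, chr7:10068096-10068125 (minus) for Rps15 and chr11:81235002-81235031 (minus) for Rpl35a.
Rps24: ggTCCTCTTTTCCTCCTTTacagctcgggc
Rpl14: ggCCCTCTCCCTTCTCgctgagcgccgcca
Rpl34: TCCTTTTCCTCTTCCggggacggtgcttag
Rps23: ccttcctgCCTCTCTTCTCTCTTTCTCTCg
Rplp0: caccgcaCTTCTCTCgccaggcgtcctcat
Rpl35: CTTCCTCTTTCTCTCgaaccgggcggcctc
Rpl4: TCTTCCTTTTCCTgtgggagcagccgggta
Rpl19: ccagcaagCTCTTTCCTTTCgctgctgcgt
Rps15: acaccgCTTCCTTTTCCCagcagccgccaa
Rpl35a: tcttgCCTTCCTCTTTCCgccatcttggcg

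A run of at least 7 pyrimidines (C or T in any order) lay in the 30 bases of 26 of the 43 genes (60.5%), against 3024 of 19005 protein-coding genes with an entry (15.9%). The stricter TOP form, a C at the annotated first base followed by at least 4 pyrimidines, was found in 12 of 43 (27.9%) against 2.44% of all genes. The same search for purines, which reads the other strand, found a run in 6.98% of the genes and in 19% of all genes. Among core genes, the run was present in 10 of 19 that fell at 30 h (52.6%) and in 14 of 18 that did not (77.8%). Rps16, Rpl41, Rps3 and Rpl11, with some of the largest falls, had no such run in this window, while Rpl35, Rpl4 and Rpl19, which were not called, had runs of 15, 13 and 12 bases. An absent run says only that these letters are not in this window.

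Many ribosomal protein transcripts, but not all, were lower 30 h after death, few passed the test at 16 h, and none did at 4 h. At 4 h none of the 57 was called by limma at an adjusted p under 0.05, where 0.0226% of all probe sets were, and 1 had an unadjusted p under 0.05. At 16 h 3 fell, against 1.49% of all probe sets, and none rose, against 3.18%. At 30 h 24 probe sets of 23 genes fell, a share of 42.1% against 9.36% of all probe sets, and 2 rose, against 10.4% of all. The median difference from heart-beating donors over the members was 0.04 at 4 h, -0.10 at 16 h and -0.20 at 30 h, beside 0.00, -0.02 and 0.01 over all probe sets.

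**Figure D1:**
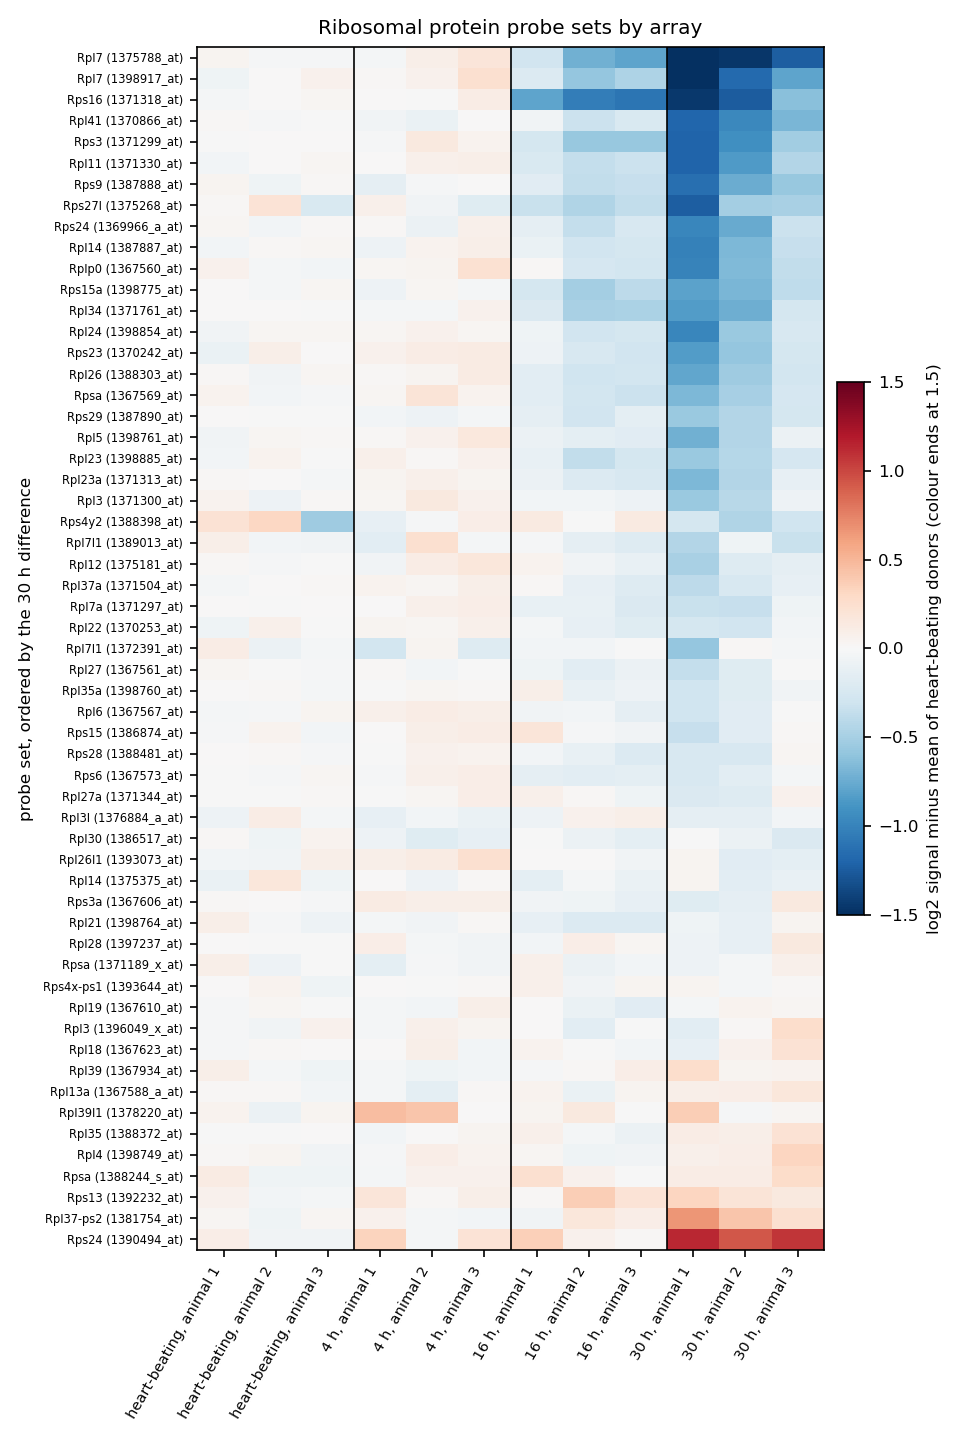
Log2 signal of each of the 57 ribosomal protein probe sets (rows, ordered by the 30 h difference) on each of the 12 arrays (columns), minus the mean of the heart-beating donors. The 30 h columns are blue for the upper rows, down to a mean of -1.55 for Rpl7, pale for the middle rows and red for the last row, Rps24 1390494_at, at 1.04.

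Ribosomal protein probe sets are bright, and bright probe sets as a whole fell more often. Of the 57, 41 probe sets (39 genes) had a mean above log2 10 over all arrays. At 30 h 23 of these 41 fell (56.1%), and none rose, beside 34.2% lower and 13.3% higher among all 1076 probe sets of that brightness. Their median difference was -0.35, against -0.14 for all bright probe sets. At 16 h 2 of the 41 fell, against 3.62% of the bright background. Arrays of the 30 h group all lay below the heart-beating arrays for 26 of the 41, where 40.1% of bright probe sets behaved so. The 16 h arrays already did so for 25 of the 41, beside 293 of the 1076 bright probe sets. The 16 h median differences were smaller, at -0.15 for the 41 and -0.03 for all bright probe sets. As a description across probe sets, the heart-beating level and the 30 h difference had a Pearson correlation of -0.11 over the 41 bright members and of -0.45 over all 57, which share the same arrays and the same floor of signal.

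The small subunit lost signal in 8 of its 16 core probe sets at 30 h (50%), each from another gene, and gained it in 1 (6.25%). The lower share was 9.36% over all probe sets and 34.2% over the bright ones, and the higher share 10.4% and 13.3%. Rps16, whose tail touches the peptidyl tRNA, had the largest difference of the 57 at 16 h and, after Rpl7, the largest fall of a gene at 30 h. Its probe set 1371318_at read 11.58, 11.62 and 11.65 in heart-beating donors, 11.63, 11.62 and 11.73 at 4 h, 10.83, 10.58 and 10.53 at 16 h and 10.18, 10.38 and 10.99 at 30 h. The 16 h and 30 h arrays all lay below every earlier array and overlapped each other. The difference from heart-beating donors was -0.97 (SE 0.16, adjusted p = 0.00513) at 16 h and -1.11 (SE 0.16, adjusted p = 0.000373) at 30 h, and the 30 h level is 2.15-fold lower.

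Proteins at the mRNA entry and decoding sites did not move alike. Rps3, which lines the entry to the mRNA channel, read 11.28, 11.29 and 11.29 in heart-beating donors, 11.27, 11.43 and 11.34 at 4 h, 11.02, 10.72 and 10.72 at 16 h and 10.09, 10.37 and 10.76 at 30 h. Its 30 h arrays were all lower than any heart-beating array, by 0.88 on average (difference -0.88, SE 0.14, adjusted p = 0.000662). Rps23, at the decoding centre, fell by 0.56 (difference -0.56, SE 0.12, adjusted p = 0.00423). Rps15, which contacts tRNA from the head of the subunit, differed by -0.16 (SE 0.09, adjusted p = 0.248, 95% interval -0.36 to 0.03) and its groups overlapped. The list made for this region also held Rpsa, which lies outside the entry and decoding sites and gave 3 of its 6 probe sets. It did not hold every protein of these sites. Of the 6, 3 were lower (Rps3, Rps23 and Rpsa 1367569_at), against 9.36% of all probe sets and 34.2% of the bright ones, to which all 6 belong. The count therefore does not describe the region.

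Rps9, a protein of the subunit body, read 11.70, 11.61 and 11.69 in heart-beating donors, 11.52, 11.65 and 11.67 at 4 h, 11.50, 11.29 and 11.31 at 16 h and 10.53, 10.92 and 11.10 at 30 h. All 30 h arrays lay below all others, and the 30 h difference was -0.82 (SE 0.12, adjusted p = 0.000399). Rps15a fell by 0.62 (difference -0.62, SE 0.10, adjusted p = 0.000722) and Rps29, a zinc-binding protein of the head, by 0.42 (difference -0.42, SE 0.08, adjusted p = 0.00196). Rps6, the substrate of the S6 kinases below TOR, read 12.02, 12.01 and 12.06 in heart-beating donors, 12.01, 12.11 and 12.14 at 4 h, 11.89, 11.88 and 11.88 at 16 h and 11.79, 11.88 and 12.01 at 30 h. Its 3 arrays at 30 h lay just under the heart-beating ones, at a difference of -0.14 (SE 0.07, adjusted p = 0.165, 95% interval -0.28 to 0.00) that was not called. Rps28 (-0.15), Rps3a (-0.06) and the dim probe set of Rps13 (0.22) were not called either.

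In the large subunit 15 of 32 core probe sets (46.9%), from 14 of 29 genes, fell at 30 h and none rose. Over all probe sets 9.36% fell and 10.4% rose, and over the bright ones 34.2% and 13.3%. Rpl7, an RNA-binding protein, had the largest loss of the family, and both of its probe sets showed it. Probe set 1375788_at read 9.85, 9.79 and 9.79 in heart-beating donors, 9.78, 9.89 and 9.98 at 4 h, 9.52, 9.09 and 9.01 at 16 h and 7.86, 8.35 and 8.57 at 30 h. Probe set 1398917_at read 11.64, 11.72 and 11.77, then 11.72, 11.77 and 11.95, then 11.51, 11.13 and 11.25, and 10.13, 10.55 and 10.92 at 30 h. In both, the 30 h arrays lay below all 16 h arrays, which in turn lay below all earlier ones. The 30 h differences were -1.55 (SE 0.16, adjusted p = 3.91e-05) and -1.18 (SE 0.16, adjusted p = 0.000256), or levels 2.93-fold and 2.26-fold lower.

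Rpl41, a very short basic peptide that bridges the subunits, read 11.88, 11.84 and 11.85 in heart-beating donors, 11.81, 11.75 and 11.86 at 4 h, 11.80, 11.53 and 11.63 at 16 h and 10.67, 10.89 and 11.18 at 30 h. Its 30 h arrays lay clear of every other array, while the 16 h arrays were only just below the heart-beating ones. The 30 h difference was -0.95 (SE 0.11, adjusted p = 8.18e-05). Rpl24, another bridge protein, fell by 0.59 (difference -0.59, SE 0.14, adjusted p = 0.00884).

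Both proteins that carry 5S rRNA into the large subunit, and that can bind Mdm2 when free, were lower. Rpl11 read 11.81, 11.85 and 11.88 in heart-beating donors, 11.85, 11.93 and 11.93 at 4 h, 11.62, 11.49 and 11.53 at 16 h and 10.65, 10.997 and 11.41 at 30 h. Its partner Rpl5 read 11.55, 11.63 and 11.62 in heart-beating donors, 11.62, 11.66 and 11.76 at 4 h, 11.51, 11.45 and 11.43 at 16 h and 10.88, 11.16 and 11.51 at 30 h. The 30 h arrays of both lay below all heart-beating arrays, but animal 3 lay close under the heart-beating arrays for Rpl5. Rpl11 differed by -0.83 (SE 0.14, adjusted p = 0.00103) and Rpl5 by -0.42 (SE 0.12, adjusted p = 0.0242). The call of Rpl5 was lost when heart-beating animal 2 or 3, or 30 h animal 1 or 2, was left out (differences -0.40, -0.41, -0.27 and -0.41). It was also lost with further quantile normalization (-0.20, adjusted p = 0.147), with array weights (-0.29) and in a fit of only these 2 groups (adjusted p = 0.0975).

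The stalk that recruits elongation factors was represented by its base protein Rplp0 alone. It read 11.19, 11.10 and 11.09 in heart-beating donors, 11.15, 11.17 and 11.35 at 4 h, 11.14, 10.88 and 10.85 at 16 h and 10.13, 10.47 and 10.76 at 30 h. The 30 h arrays lay below all others, at a difference of -0.67 (SE 0.13, adjusted p = 0.003). Rpl3, a core protein near the peptidyl transferase centre, fell by 0.35 with its brighter probe set 1371300_at (difference -0.35, SE 0.10, adjusted p = 0.0254). That call was lost without heart-beating animal 1 or 3 or without 30 h animal 1 or 2 (differences -0.32, -0.34, -0.25 and -0.32). It was also lost with cyclic loess (-0.24), further quantile normalization (-0.14, adjusted p = 0.252), array weights (-0.25), the mean over the probe sets of the gene (-0.15) and a fit of only these 2 groups (adjusted p = 0.101).

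Of the proteins that line or rim the peptide exit tunnel, 2 passed the test. Rpl26 fell by 0.53 (difference -0.53, SE 0.10, adjusted p = 0.00292) and Rpl23a, where signal recognition particle docks, by 0.41 (difference -0.41, SE 0.11, adjusted p = 0.0151). Rpl4, whose loop narrows the tunnel, read 11.24, 11.26 and 11.17 in heart-beating donors, 11.21, 11.32 and 11.27 at 4 h, 11.25, 11.16 and 11.16 at 16 h and 11.30, 11.32 and 11.54 at 30 h. Rpl35, at the tunnel rim, read 11.85, 11.85 and 11.87 in heart-beating donors, 11.82, 11.86 and 11.89 at 4 h, 11.93, 11.82 and 11.77 at 16 h and 11.97, 11.95 and 12.08 at 30 h. All 30 h arrays of Rpl4 and Rpl35 lay above their heart-beating arrays, without a call: the differences were 0.16 (95% interval 0.01 to 0.32, adjusted p = 0.14) and 0.14 (95% interval 0.01 to 0.28, adjusted p = 0.136). Rpl19 differed by 0.02 (95% interval -0.12 to 0.16) and Rpl39 by 0.12 (95% interval -0.04 to 0.27). Thus 2 of the 6 listed tunnel probe sets were lower (33.3%), a share near the 34.2% of all bright probe sets, and the median over the 6 was 0.07.

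Among the remaining large subunit proteins, Rpl14 (-0.68), Rpl34 (-0.61), Rpl23 (-0.41), Rpl37a (-0.25) and Rpl7a (-0.25) fell. Rpl12, a base protein of the stalk, missed the threshold at -0.27 (SE 0.09, adjusted p = 0.0569). Over the 24 falls the difference ranged from -1.55 to -0.25, that is from 2.93-fold to 1.19-fold lower, and 3 of them were at least 2-fold. Over the 31 uncalled probe sets it ranged from -0.33 to 0.22. The median standard error of the falls was 0.117 and that of the uncalled probe sets was 0.0768.

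**Figure D2:**
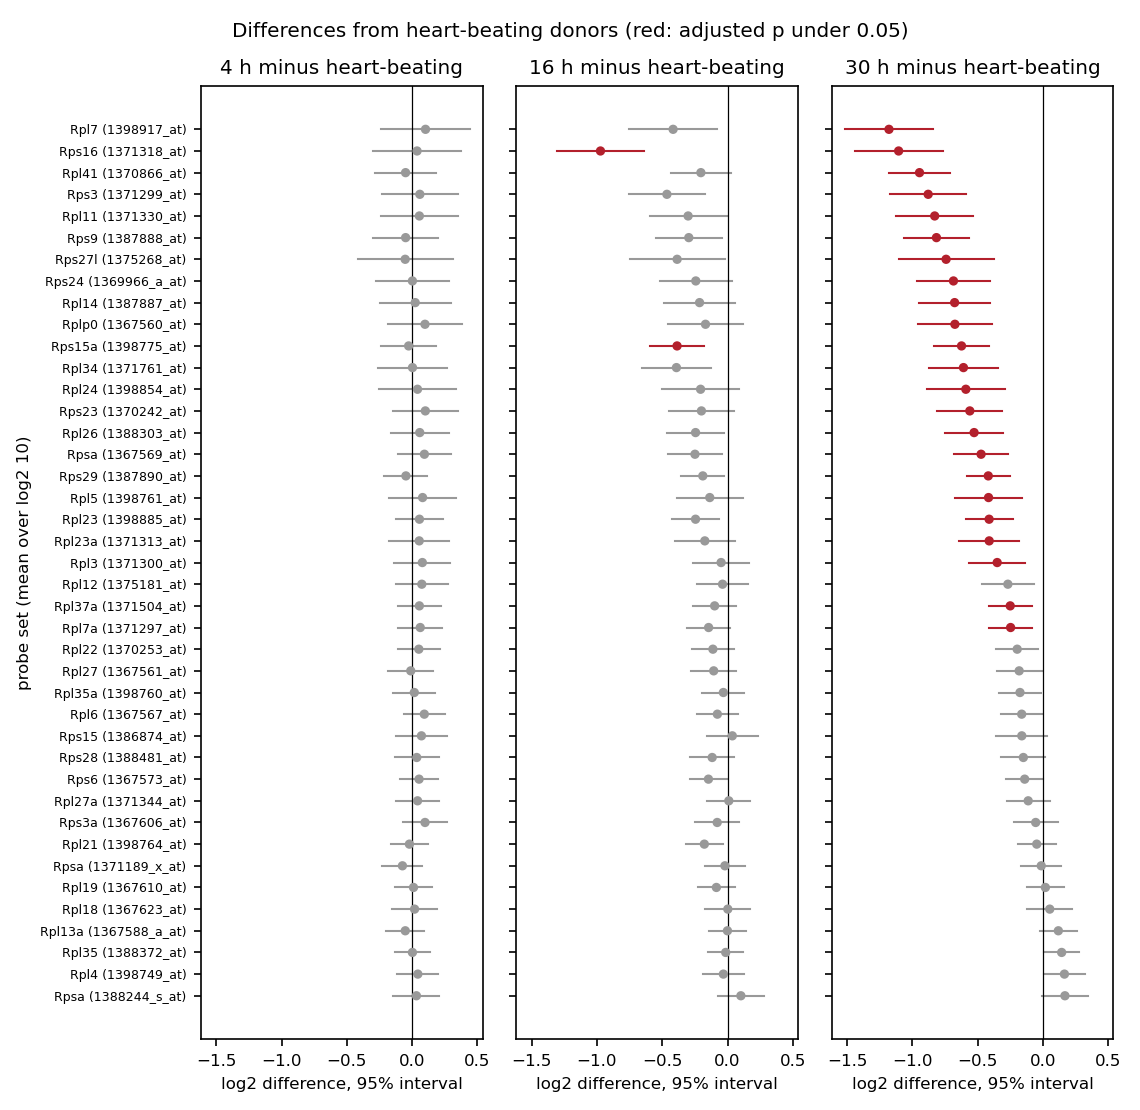
Log2 difference from heart-beating donors with its 95% interval for the 41 ribosomal protein probe sets with a mean above log2 10, at 4, 16 and 30 h, with adjusted p under 0.05 in red. At 4 h all 41 lie near 0, at 16 h Rps16 and Rps15a are called, and at 30 h the points spread from -1.18 (Rpl7) to 0.17 (Rpsa 1388244_s_at).

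Probe sets of the same gene did not always move alike. For each of 4525 genes, the difference between its 2 brightest probe sets was tested for change. It changed in 35% of all genes at 30 h, in 13.7% at 16 h and in 0.0442% at 4 h. Of the 6 ribosomal protein genes with more than 1 probe set, 5 changed at 30 h, 1 at 16 h and none at 4 h. In Rpl7 both probe sets fell, but 1375788_at lost 0.37 more than 1398917_at (SE 0.10, adjusted p = 0.00715).

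Rps24, a small subunit protein whose mRNA is spliced in several ways near its end, gave opposite calls. Probe set 1369966_a_at read 12.11, 12.04 and 12.10 in heart-beating donors, 12.10, 11.998 and 12.17 at 4 h, 11.96, 11.72 and 11.85 at 16 h and 11.11, 11.32 and 11.77 at 30 h. The dim probe set 1390494_at read 5.36, 5.21 and 5.21 in heart-beating donors, 5.60, 5.23 and 5.47 at 4 h, 5.62, 5.33 and 5.28 at 16 h and 6.39, 6.19 and 6.33 at 30 h. The 30 h arrays of the former all lay below, and those of the latter all above, their heart-beating arrays. The differences were -0.69 (SE 0.13, adjusted p = 0.00237) and 1.04 (SE 0.11, adjusted p = 4.23e-05). The gap between the probe sets moved by -1.73 (SE 0.14, adjusted p = 2.57e-08), the largest such change in the family.

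Rpsa, the small subunit protein also known as the laminin receptor, had 3 probe sets. Probe set 1367569_at read 10.86, 10.78 and 10.80 in heart-beating donors and 10.14, 10.32 and 10.56 at 30 h, and it fell (difference -0.47, SE 0.10, adjusted p = 0.00365). Probe set 1388244_s_at read 10.71, 10.52 and 10.52 in heart-beating donors and 10.70, 10.69 and 10.87 at 30 h, groups that overlapped at a difference of 0.17 (SE 0.08, adjusted p = 0.18). It was called higher after cyclic loess (0.24, adjusted p = 0.0442) and further quantile normalization (0.36, adjusted p = 0.00936). Probe set 1371189_x_at differed by -0.01 (SE 0.07). The IDs of these last probe sets mark probes shared with other transcripts. The gap between 1388244_s_at and 1367569_at moved by 0.35 at 16 h (SE 0.10, adjusted p = 0.0236) and by 0.64 at 30 h (SE 0.10, adjusted p = 4.93e-05). The 16 h change was no longer called without heart-beating animal 2 or 3 or without 16 h animal 1 or 2, each of which left 0 of the 6 genes changed, and 2 genes changed without 30 h animal 1 or 3.

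Rpl14 and Rpl3 likewise had a bright probe set that fell beside a dimmer one that was not called, Rpl14 1375375_at (-0.07, SE 0.08) and Rpl3 1396049_x_at (0.04, SE 0.09). Their gaps moved by -0.60 (SE 0.15, adjusted p = 0.00448) and -0.39 (SE 0.09, adjusted p = 0.00297). In the paralog Rpl7l1 neither probe set was called and the gap changed by -0.08 (SE 0.11, adjusted p = 0.62). Ribosomal protein genes have many processed pseudogenes, and cross-hybridisation of their transcripts was not tested.

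**Figure D3:**
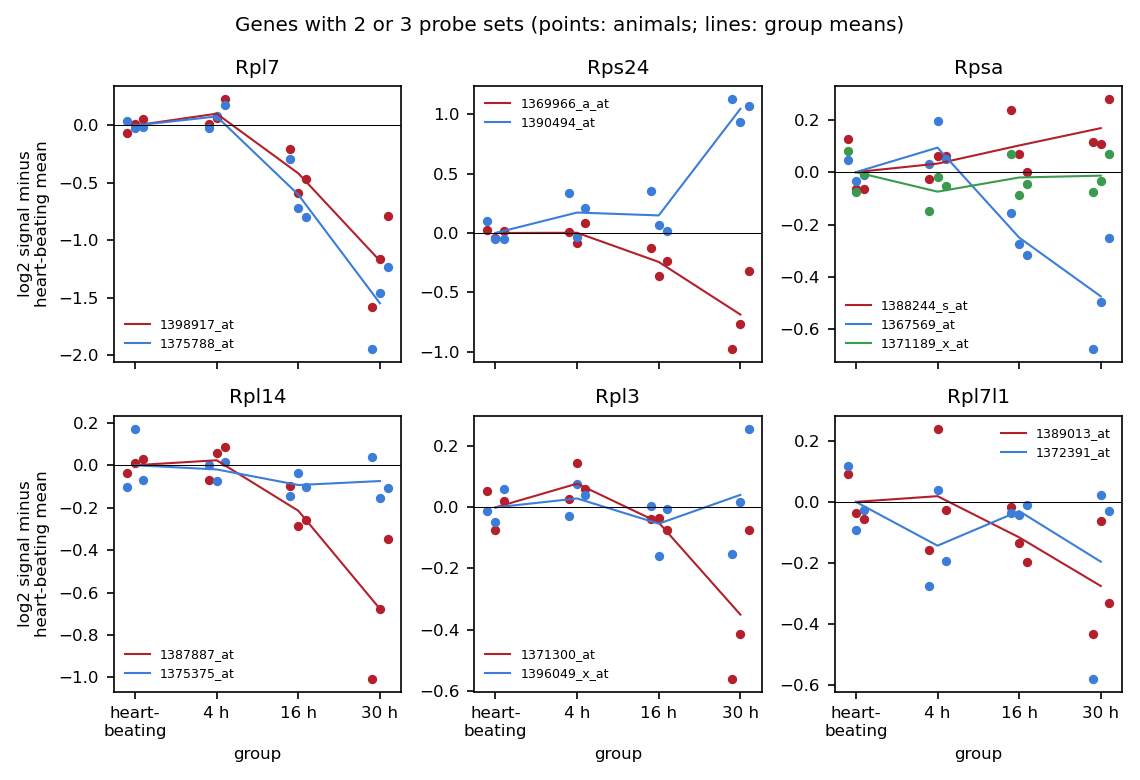
Log2 signal minus the heart-beating mean (vertical axis) by group for every probe set of the 6 genes with more than 1 (points are animals, lines are group means, and each panel has its own scale). The probe sets of Rps24 part to -0.69 and 1.04 at 30 h, while those of Rpl7 both fall.

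The paralogs are proteins that resemble a core ribosomal protein and are encoded by genes of their own. Rps27l, a p53 target in human and mouse cells, was the only called paralog. It read 10.40, 10.58 and 10.15 in heart-beating donors, 10.46, 10.32 and 10.19 at 4 h, 10.04, 9.93 and 10.01 at 16 h and 9.14, 9.87 and 9.90 at 30 h. The 16 h and 30 h groups lay below the heart-beating arrays, and animal 1 was well below the other 30 h animals. Its 30 h difference was -0.74 (SE 0.17, adjusted p = 0.00762). Rps27l was also the only paralog with a mean above log2 10. The other 6 paralog probe sets were dimmer and were not called, with 30 h differences from -0.33 for Rps4y2 (adjusted p = 0.193) to 0.12 for Rpl39l1 (adjusted p = 0.536). Rpl3l, which replaces Rpl3 in striated muscle, stood at 3.81, 4.00 and 3.85 in heart-beating donors, near the lowest signals of the arrays (2.99), and differed by -0.10 (SE 0.07).

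Of the pseudogene symbols, Rpl37-ps2 read 4.49, 4.40 and 4.49 in heart-beating donors, 4.52, 4.43 and 4.42 at 4 h, 4.41, 4.63 and 4.56 at 16 h and 5.12, 4.88 and 4.71 at 30 h. Its 30 h arrays lay above all others and it rose (difference 0.44, SE 0.10, adjusted p = 0.0058). Rps4x-ps1 differed by 0.01 (SE 0.06). Rack1, a ribosomal protein outside the symbol rule that scaffolds signalling proteins on the small subunit, differed by -0.26 (SE 0.11, adjusted p = 0.123).

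Between consecutive late times the members' median difference was -0.15 from 4 h to 16 h and -0.13 from 16 h to 30 h, beside -0.03 and 0.03 over all probe sets. The second median was -0.21 without 30 h animal 3 and -0.08 without 30 h animal 1. Between 4 h and 16 h 6 probe sets fell, against 2.52% of all, and none rose, against 5.31%. They were Rps16 (-1.01), Rpl7 1375788_at (-0.68), Rps3 (-0.52), Rps15a (-0.36), Rpsa 1367569_at (-0.34) and Rpl23 (-0.30). Between 16 h and 30 h 8 fell, against 5.95% of all, and 2 rose, against 4.29%. The falls were led by both Rpl7 probe sets (-0.95 and -0.76), Rpl41 (-0.74, adjusted p = 0.00124), Rpl11 (-0.53) and Rps9 (-0.52). The rises were Rps24 1390494_at (0.90) and Rpl37-ps2 (0.37). Of the 41 bright members, 5 fell from 4 h to 16 h (12.2%), against 5.11% of all bright probe sets. From 16 h to 30 h 7 of them fell (17.1%), a share below the 24.7% of all bright probe sets. None of the 41 rose in either comparison, where 9.48% and 5.48% of all bright probe sets did. Rps16 was not called between 16 h and 30 h, with a difference of -0.13 (SE 0.16, adjusted p = 0.638).

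The 16 h calls beside Rps16 were Rpl7 1375788_at (-0.60, SE 0.16, adjusted p = 0.0485) and Rps15a (-0.39, SE 0.10, adjusted p = 0.04), both near the threshold. Each lost its call in 9 of the 12 fits that left out 1 array, and 1 to 8 members were called lower at 16 h across those fits. The fit gave 1 without heart-beating animal 1, 2 or 3, without 4 h animal 1, 2 or 3 and without 16 h animal 2 or 3, but 8 without 30 h animal 1 and 5 without 30 h animal 3. With all 30 h arrays left out, 11 members were called lower at 16 h and 19 between 4 h and 16 h. For the same 4 h to 16 h comparison, leaving out 1 array gave 1 to 11 falls: 3 without heart-beating animal 1 or 3, 2 without 4 h animal 1, 1 without 4 h animal 2 or 3 or 16 h animal 2 or 3, and 11 without 30 h animal 1 or 3. Between 16 h and 30 h the count was 2 without 16 h animal 1, 4 without 16 h animal 2, 5 without 16 h animal 3, 4 without 30 h animal 1, 5 without 30 h animal 2 and 20 without 30 h animal 3. Rises there numbered 1 without 16 h animal 1 or 3 or without 30 h animal 1. The fall of Rpl11 from 16 h to 30 h lost its call in 5 of the 12 fits, with a difference of -0.34 without 30 h animal 1. The falls of Rpl7 1375788_at and Rpl41 and the rise of Rps24 1390494_at kept their call in all 12. The share of all probe sets called in these fits, or without the 30 h arrays, is not given here. The changes in count therefore do not single out the members.

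Animals of the late groups differed from each other across nearly the whole family. At 30 h animal 3 was the highest of its group in 40 of the 41 bright probe sets, and animal 1 was the lowest in 35. The median difference from the heart-beating mean over these 41 was -0.55 in animal 1, -0.42 in animal 2 and -0.12 in animal 3. Over all bright probe sets it was -0.29, -0.06 and -0.07, so animal 1 was also the lowest outside the family. The Gapdh 3′ to 5′ differences of these animals were 2.31, 1.82 and 1.79, but those of Actb were 2.75, 2.92 and 2.95. Animal 1 was thus the highest of its group by Gapdh and the lowest by Actb. At 16 h animal 1 was the highest in 39 of the 41, with a median of -0.07 against -0.16 and -0.20 in animals 2 and 3. Over all bright probe sets these medians were -0.002, -0.04 and -0.03. The Gapdh differences were 0.85, 1.25 and 1.06, and those of Actb 1.89, 2.54 and 2.22. The median standard deviation of a member between animals went from 0.0452 in the heart-beating group to 0.176 in the 30 h group; over all probe sets these were 0.0754 and 0.115. Leaving out 1 array at a time, 20 (without 30 h animal 1) to 30 (without 30 h animal 3) members fell at 30 h. The share of all probe sets that fell in those fits is not given here.

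**Figure D4:**
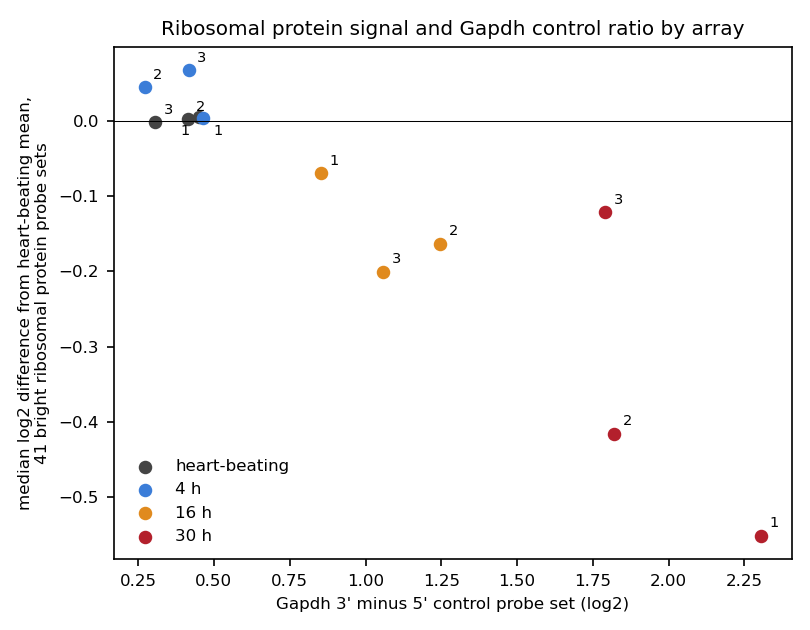
Median log2 difference from the heart-beating mean over the 41 bright ribosomal protein probe sets (vertical axis) against the log2 difference between the Gapdh 3′ and 5′ control probe sets (horizontal axis), 1 point per array, numbered by animal. Heart-beating and 4 h arrays lie together at the upper left, and the 30 h arrays spread from -0.12 to -0.55 at the right.

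With the Gapdh difference as a covariate, none of the 57 members was called lower at 30 h, and their median difference was 0.35. That fit called 0 of all 31042 probe sets at 30 h, and the median standard error of a member rose from 0.091 to 0.277, since the Gapdh difference separates the groups almost as the labels do. Time after death and RNA quality therefore cannot be told apart at 30 h. Markers of other liver cells moved as well, beside 9.36% of all probe sets called lower and 10.4% called higher at 30 h. Of 11 Kupffer cell probe sets 8 were lower at 30 h, and their summed log2 signal spanned 12.28 to 12.38 with a beating heart and 11.61 to 11.89 at 30 h. Of 11 erythroid probe sets 4 were higher, at 12.20 to 12.49 and 13.78 to 14.36. Of 17 stellate cell and fibroblast probe sets 8 were higher, at 11.55 to 11.98 and 12.14 to 12.56. Endothelial (2 of 10 higher), lymphocyte (0 of 13 called) and cholangiocyte (0 of 5 called) sums spanned 11.53 to 11.69, 9.605 to 9.691 and 8.047 to 8.084 in heart-beating donors and 11.46 to 12.09, 9.594 to 9.705 and 8.022 to 8.245 at 30 h. The signal sums have no true 0, and the part of these cells in the ribosomal protein results was not tested.

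Other transcripts of the translation machinery give a frame for these values, at 30 h, where 9.36% of all probe sets fell and 10.4% rose. Mitochondrial ribosomal proteins, which build the separate ribosome of that organelle, fell in 39 of 97 probe sets (40.2%) and rose in 3, with a median of -0.21. The probe sets with the smallest p belonged to Mrpl51 (-1.53, SE 0.13, adjusted p = 1.25e-05), Mrpl17 (-1.06) and Mrpl10 (-0.93). The brightest probe set of Mrpl51 was lower as well (-0.79), while that of Mrpl10 differed by 0.04 without a call. Initiation factors fell in 20 of 75 probe sets (26.7%) and rose in 6, with a median of -0.07. The smallest p belonged to Eif3l (-1.98), Eif4g2 (-2.05) and Eif1a (-1.51), a factor that binds the small subunit as it scans for the start codon. Eif3l was also lower with its brighter probe set (-0.94), but the brightest probe sets of Eif4g2 (-0.25, adjusted p = 0.161) and Eif1a (0.23, adjusted p = 0.22) were not called. No difference between these lists and the cytosolic ribosomal proteins was tested.

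The list of elongation factors and other known TOP transcripts also held Eef2k, a kinase of Eef2, and Eef1e1, which are neither. At 30 h 7 of its 23 probe sets fell (30.4%) and 1 rose, with a median of -0.06. Over all probe sets 9.36% fell and 10.4% rose, and over the bright ones 34.2% and 13.3%. The falls of Eef1a1, Eef1b2, Naca, Eef2, Eef1g and Eif5a came from probe sets with heart-beating means of log2 10.38 to 12.48. No probe set of Eef2k or Eef1e1 was called at 30 h. Eef1b2 (-0.995, SE 0.18, adjusted p = 0.00169) and Eef1g (-0.69, SE 0.13, adjusted p = 0.00299), subunits of the exchange factor that reloads Eef1a with GTP, fell, the second with the brighter of its probe sets only (the dimmer differed by 0.08). Eef1a2 fell with the dimmer of its probe sets (-0.38, SE 0.07, adjusted p = 0.00142), while the brighter differed by 0.10 (adjusted p = 0.422). Hnrnpa1, an RNA-binding protein, rose with its brightest probe set (0.43, SE 0.11), and its other probe sets differed by -0.23 and -0.15 without a call.

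Of the ribosome biogenesis factors, 13 of 51 probe sets rose (25.5%, against 10.4% of all probe sets) and 8 fell (15.7%, against 9.36%). The median was 0.14. Utp20 (0.57) and Dkc1 (0.65), which act on pre-rRNA, rose, and Eif6 (-0.59), which keeps immature large subunits from joining, fell. Nop56, a core protein of the box C/D particles, had 1 probe set up (0.53) and another down (-0.35). RNA polymerase I subunits and factors rose in 4 (16.7%) and fell in 5 (20.8%) of 24 probe sets.

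Of the TOR pathway and TOP regulators, 12 of 42 probe sets rose (28.6%, against 10.4% of all probe sets) and 8 fell (19%, against 9.36%). Larp1, which binds the TOP start, rose with 3 of its 4 probe sets (0.68, SE 0.10, adjusted p = 0.000512; 0.42; 0.31), and the other differed by 0.27. Pdcd4, an inhibitor of the initiation helicase, was lower with 1 dim probe set of 5 (-0.82, SE 0.10, adjusted p = 0.000101), and the others differed by -0.38 to 0.10 without a call. Rheb, the direct activator of TOR, was lower with its dim probe set (-0.53, SE 0.08, adjusted p = 0.000408), while its bright one differed by -0.07 (adjusted p = 0.611).

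**Figure D5:**
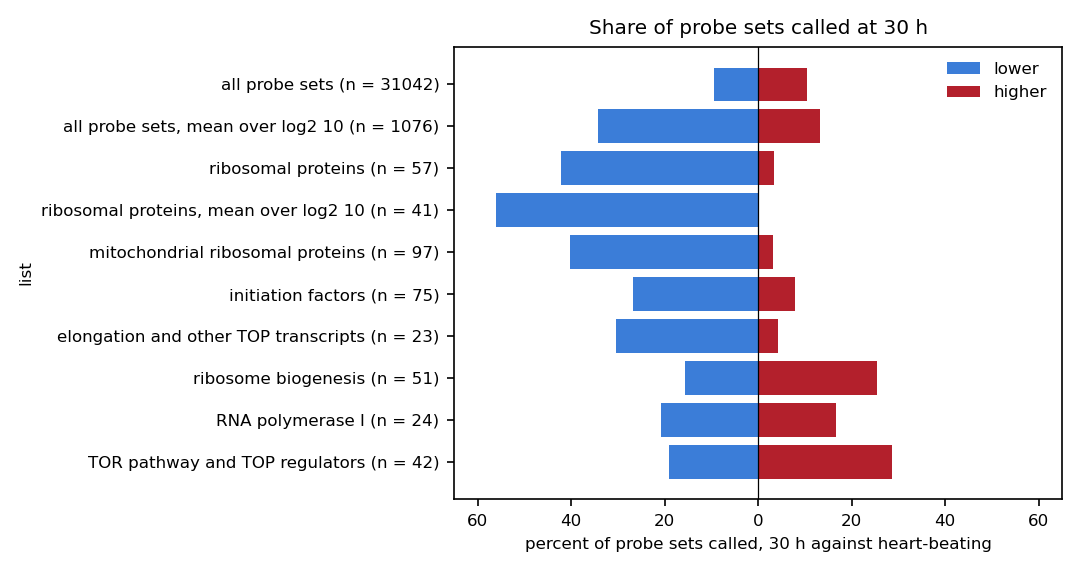
Percent of probe sets called lower (left, blue) and higher (right, red) at 30 h against heart-beating donors for all probe sets, bright probe sets, the ribosomal proteins and related lists, with the number of probe sets in each. The lower share is 9.36% over all probe sets, 34.2% over bright ones, 42.1% over the ribosomal proteins and 56.1% over the bright ribosomal proteins.

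The 36 probe sets that carry a ribosomal protein symbol beside others, left out above, had a median 30 h difference of -0.45. Of them 21 fell (58.3%) and 3 rose (8.33%) at 30 h, and 3 fell at 16 h (8.33%). Most had a mean above log2 10. Among all probe sets of that brightness 34.2% fell and 13.3% rose at 30 h, and 3.62% fell at 16 h.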

How the data were processed

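Gene expression was measured on 12 rat arrays, 1 per donor animal. The authors deposited log2 signals per probe set, made with RMA and used with limma per the submitters' processing notes; no version or setting of either is given in the sources used. Precision is limited by the number of arrays, not by a read depth, and signals ran from log2 2.99 to 14.51. No value column of another series was present (0).

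Of 31099 probe sets 57 are controls. In the platform annotation 20826 of the other 31042 carry 1 symbol, 436 several and 9780 none. Of the 50 ribosomal protein genes 48 have their gene ID in a rat RefSeq table (GRCr8). Samples were grouped by title. limma 3.58.1 in R 4.3.3 (lmFit, eBayes; 1 mean per group, no filter, no further normalization) was fitted to all 31042 probe sets on all 12 arrays, with 8 residual and 4.93 prior degrees of freedom. A call is a Benjamini-Hochberg adjusted p under 0.05 over all probe sets. The test was checked on simulated data with independent probe sets and the same spread in every group. The arrays differ from this, since the spread between animals was wider at 30 h, so the check does not cover that case. The median standard deviation of a bright member was 0.0334 (heart-beating), 0.0552 (4 h), 0.0837 (16 h) and 0.181 (30 h). Each standard error and p-value of a probe set rests on 1 spread shared by all groups.

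The members, the lists and the rule for names were chosen with earlier results of these data known. The rule named the 10 largest falls and rises among called members whose groups did not overlap (5 between times), landmark proteins (Rplp0, Rpl5, Rpl11, Rpsa, Rps6, Rpl3), paralogs, pseudogenes and Rack1, and 3 members of each other list by p. Members named beside these, to describe the subunits and regions, were chosen after their values were seen. Same-numbered animals did not deviate together (2 of 18 correlations over 0.1, range -0.272 to 0.111), so numbers were not taken as pairs. Alternatives were other normalizations, filters, probe set rules, variance models, array weights, a replicate block, the Gapdh covariate and leaving out arrays. The bright background (mean above log2 10) was added after the data were seen.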

Additional observations from a re-analysis of the deposited data

Results flagged for a closer look

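The 16 h and 30 h effects differed for 10 probe sets, whose difference between 30 h and 16 h itself passed the test. In that comparison 5.95% of all probe sets fell and 4.29% rose, and 24.7% of the bright ones fell. With the Gapdh difference as a covariate none of the 10 was called, where 4 of all 31042 probe sets were called lower and 4 higher. Lower at 30 h than at 16 h were Rpl7 1375788_at (-0.95), Rpl7 1398917_at (-0.76), Rpl41 (-0.74), Rpl11 (-0.53), Rps9 (-0.52), Rplp0 (-0.51), Rpl14 1387887_at (-0.46) and Rps24 1369966_a_at (-0.44). Higher were Rpl37-ps2 (0.37) and Rps24 1390494_at (0.90). Without 16 h animal 1, 2 of the 8 falls kept their call, those of Rpl7 1375788_at and Rpl41; both, and the rise of Rps24 1390494_at, kept it in all 12 fits that left out 1 array. The rise of Rpl37-ps2 lost its call in 3 of the 12.

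A control probe set for 5S rRNA, the RNA that Rpl5 and Rpl11 carry, was not part of the gene tests. It read 7.04 ± 0.34 (SD, n = 3) with a beating heart. After death it stood at 8.67 ± 0.49 (4 h), 8.27 ± 0.40 (16 h) and 9.35 ± 0.72 (30 h). The differences of 1.63, 1.23 and 2.31 each separated the groups fully (exact two-sided permutation p = 0.1, the smallest 3 against 3 allow). Labelling of this RNA by the protocol was not tested.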

How the results depend on the processing

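The falls of Rpl7, Rps16, Rpl41, Rps3, Rpl11, Rps9, Rps27l and Rplp0 at 30 h kept their direction and call under every alternative but the Gapdh covariate. Over 796 recomputed values of named probe sets, 668 kept direction and call, 98 lost the call, 2 gained one (Rpsa 1388244_s_at at 30 h in both) and 28 changed sign. Signal near the floor limits the dim paralogs.

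Other normalizations moved counts. Median centring left 1 fall at 16 h and 2 from 4 h to 16 h. Cyclic loess gave 12 falls from 4 h to 16 h, 6 rises at 30 h and 5 from 16 h to 30 h, 2 changed gaps at 16 h and a 4 h median of 0.0711. Further quantile normalization gave 10 falls from 4 h to 16 h, 7 rises at 30 h and 8 from 16 h to 30 h, medians of 0.0629 at 4 h and -0.087 at 30 h, and Rps6 at 0.0259. Keeping the upper 50% of probe sets by signal removed the rises (0 and 0) and gave a 16 h median of -0.14. One value per gene left 1 rise in both comparisons; the mean over probe sets also gave 5 falls from 16 h to 30 h, Rps24 at 0.18 and Rpsa at -0.11. A variance trend gave 3 falls from 4 h to 16 h. Array weights gave 12 falls at 16 h, 12 from 4 h to 16 h and 4 from 16 h to 30 h. Fitting only the groups compared gave 8, 12 and 3, with 1 rise from 16 h to 30 h. Without the 30 h arrays, 11 members fell at 16 h and 19 from 4 h to 16 h. The cause of these shifts was not tested. For these refits and those below, except with the Gapdh covariate, the share of all probe sets called is not given here. The shifts in count therefore do not single out the members.

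With animal number as a replicate block, 1 member fell at 16 h and 2 from 4 h to 16 h, and 2 gaps changed at 16 h. It moved no other count by over 1.5 times, and the numbers do not pair the animals.

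With the Gapdh covariate the members had 0 falls at 16 h, 0 at 30 h, 0 from 4 h to 16 h and 0 from 16 h to 30 h, 0 rises at 30 h and from 16 h to 30 h, and 0 changed gaps at 16 h and 30 h. Medians became 0.11 at 16 h, 0.35 at 30 h, 0.089 from 4 h to 16 h and 0.22 from 16 h to 30 h. At 30 h the sign turned for Rpl7 (0.12 for 1375788_at and 0.49 for 1398917_at), Rps16 (0.20), Rpl41 (0.021), Rps3 (0.51), Rpl11 (0.49), Rps9 (0.40), Rps27l (0.62), Rps24 1369966_a_at (0.38), Rpl14 (0.60), Rplp0 (0.52), Rpl5 (0.58), Rps6 (0.24), Rpl3 (0.36) and Rpl37-ps2 (-0.48). At 16 h it turned for Rpl7 1375788_at (0.10). From 4 h to 16 h it turned for Rpl7 1375788_at (0.0249), Rps3 (0.0639), Rps15a (0.0139) and Rpsa 1367569_at (0.0036). From 16 h to 30 h it turned for Rpl7 (0.0229 and 0.21), Rpl11 (0.24), Rps9 (0.19) and Rpl37-ps2 (-0.17). None of these was called, and the covariate left no call among all probe sets at 30 h. Over all 31042 probe sets it called 25 lower and 45 higher at 16 h. From 4 h to 16 h it called 521 lower and 781 higher, and from 16 h to 30 h 4 lower and 4 higher.

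Leaving out 1 array at a time, falls numbered 1 to 8 at 16 h, 20 to 30 at 30 h, 1 to 11 from 4 h to 16 h and 2 to 20 from 16 h to 30 h, with 1 to 2 rises there. Changed gaps at 16 h numbered 0 to 2, the 4 h median ran from 0.0266 to 0.0546, that from 16 h to 30 h from -0.21 to -0.08, and the Gapdh difference at 4 h from -0.0485 to 0.04995 (0.0242 and 0.0050 without heart-beating animal 1 or 2, and 0.04995 without 4 h animal 2).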
